A study of Mus musculus with 18 samples.

Results

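The 33 genes described here carry the heart's supply of fat from the blood vessel to its oxidation: the uptake of fatty acids at the cell surface, their passage into mitochondria on carnitine, the enzymes of beta-oxidation, and a few genes of the peroxisome and the lipid droplet. They were chosen by their known function, with earlier results of these data known. A member was measured where at least 1 probe set, the group of short probes that reports a transcript on the array, was annotated to that gene alone. This held for 31 of the 33, with 55 probe sets among 45037 in all, and 31 of the 18193 genes measured in this way. For Acsl1, which activates long-chain fatty acids, no probe set of its own was found, and Cpt1b, the main carnitine palmitoyltransferase of adult heart, had only a probe set shared with other genes, so both are not analysed here. A gene was read at its probe set of highest mean over all arrays, and 18 of the 31 had more than 1.

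The study set growth of the heart in pregnancy beside growth caused by running. RNA of the left ventricle came from wild type female C57Bl/6 mice aged 3 to 4 months, and each of 6 groups had 3 Affymetrix mouse genome arrays, each hybridized with a pool of RNA from 2 to 3 hearts. NP/Sed were sedentary virgin mice in diestrus, 7EX and 21EX mice ran on wheels of their own accord for 7 or 21 days, MP mice were at day 11 of pregnancy, LP mice at days 18 to 19, and 0PP mice were taken within 12 hours of giving birth. The pool is the unit of replication, so the tests measure the spread between pools, and the spread between single hearts is not seen. All values are log2 values as normalized by the authors, so that a difference of 1 is a doubling of signal, and array medians lay between 4.93 and 5.02.

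Cardiac muscle draws most of its energy from fatty acids. They reach the cell as free fatty acids on albumin or are cut from circulating triglyceride by lipoprotein lipase, enter through Cd36 and the fatty acid transport proteins, and are bound inside the cell by Fabp3. Activated long-chain fatty acids are handed to carnitine by the Cpt1 enzymes, cross the inner mitochondrial membrane through Slc25a20 and are released again by Cpt2, after which each turn of the beta-oxidation spiral shortens the chain and passes electrons to the respiratory chain through the electron transfer flavoprotein. Many of these genes are known targets of the nuclear receptor Ppara, which binds fatty acids and, with its partner Rxra, sits on a direct repeat of a short DNA motif with a spacer of a single base.

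Promoter sequences were read from RefSeq (GRCm38.p6), as 300 bases from 250 before to 50 after each gene start. A window was found for 27 of the 31 genes. The direct repeat was searched as AGGTCANAGGTCA on both strands. No window of the 27 genes held it with at most 1 differing letter. With at most 2 differing letters 4 of the 27 genes (14.8%) held it, against 4.4% of the 27018 genes with a window. Ehhadh, which differed most between LP and its neighbours in time, is shown with its window, in which the closest match differed in 4 letters. The window lies at chr16:21787785-21788084 on the minus strand. Cd36, the sarcolemmal fatty acid transporter, is shown with its match in capitals, which lies on the strand opposite to the gene and begins 63 bases before the gene start, in the window at chr5:17835847-17836146 on the minus strand.
Ehhadh promoter: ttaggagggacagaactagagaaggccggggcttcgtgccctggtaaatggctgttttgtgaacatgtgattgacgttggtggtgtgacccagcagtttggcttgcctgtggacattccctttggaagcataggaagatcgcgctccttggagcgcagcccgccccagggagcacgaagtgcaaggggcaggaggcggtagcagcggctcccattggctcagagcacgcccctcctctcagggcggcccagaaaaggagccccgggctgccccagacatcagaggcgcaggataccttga
Cd36 promoter: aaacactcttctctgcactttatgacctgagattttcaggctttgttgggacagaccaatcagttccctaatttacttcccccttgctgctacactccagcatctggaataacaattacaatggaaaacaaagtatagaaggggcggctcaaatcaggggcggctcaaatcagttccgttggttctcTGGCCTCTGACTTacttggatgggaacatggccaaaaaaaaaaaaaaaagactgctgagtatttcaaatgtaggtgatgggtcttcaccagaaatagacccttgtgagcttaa
The matches of the other genes were AGGGCAAAGGTAA in Etfa, which begins 77 bases before the start on the opposite strand, AGGTCAGGGGTCC in Plin2, which begins 225 bases before it on the opposite strand, and AGGTGAAAGGTCG in Slc25a20, just after the start on the gene's own strand. These windows were picked for display after the matches were known, and a match is a description of letters, not of binding.

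Nearly all of these genes had their highest mean in late pregnancy. Set against its mean in NP/Sed, the median of the 31 genes was 0.30, 0.26 and 0.32 in the 3 LP arrays, and it lay between -0.07 and 0.16 in the other 15 arrays. Of the 31 genes, 29 had their highest group mean in LP, where 13.8% of all genes did. In 22 of the 31 each LP array lay above each of the other 15 arrays, a pattern that 1.35% of all genes showed. The moderated F-test over the 6 groups in limma passed an adjusted p of 0.05 for 20 of the 31 genes, against 7.5% of all genes, and this count was 13 without LP-1 and 12 without LP-3. The lowest group mean was most often in 7EX, with 15 of the 31 genes, against 11.5% of all genes. The array 0PP-3 stood closer to LP than its partners did, with 25 of 31 genes above the NP/Sed mean and a median of 0.16, against -0.01 and 0.01 for 0PP-1 and 0PP-2. In whole ventricle, fewer cells of a type and less RNA per cell cannot be told apart.

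**Figure D1:**
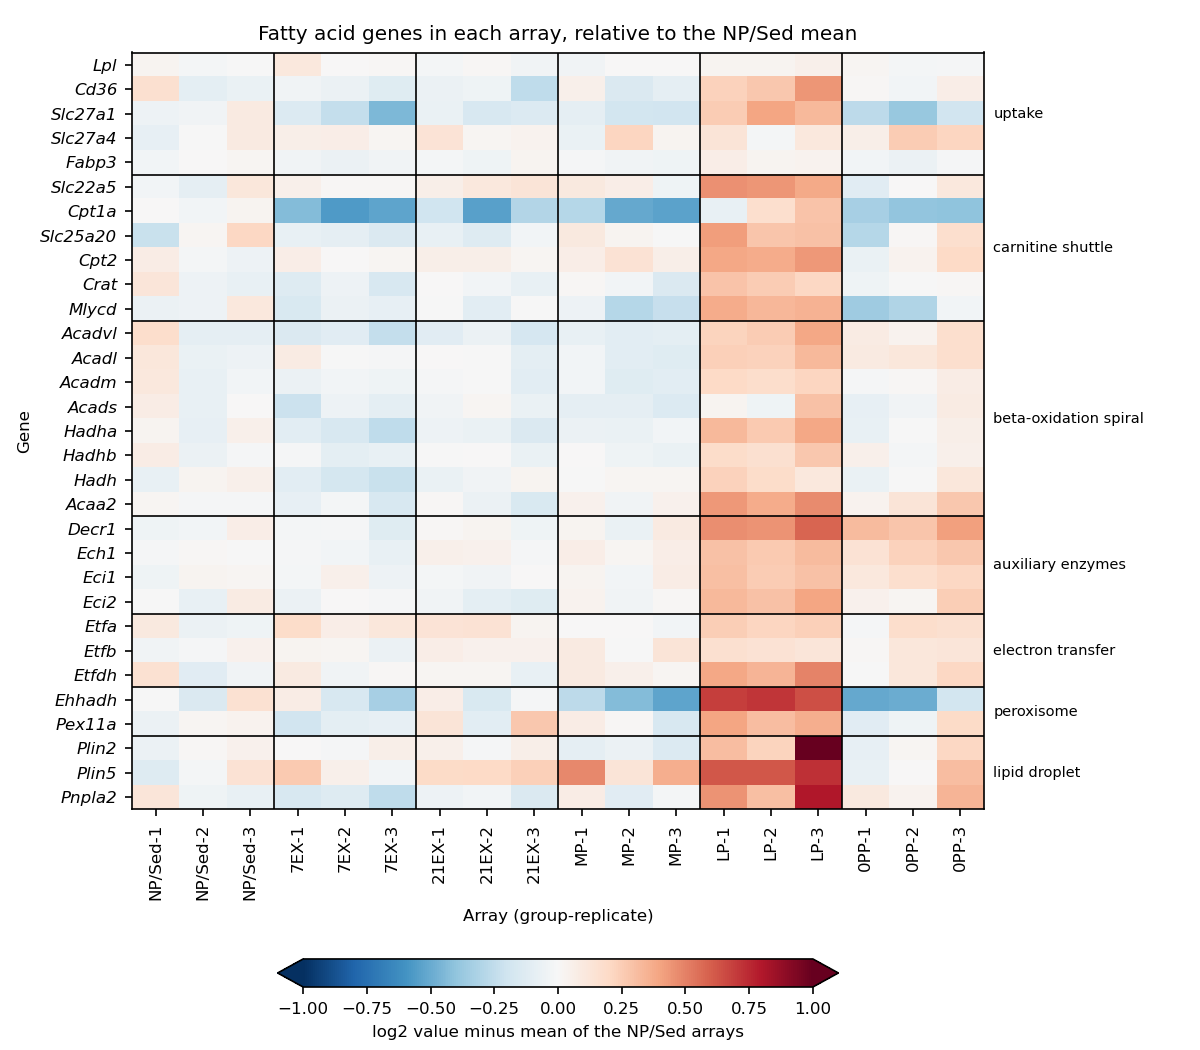
Each row is a gene, grouped by role, each column an array, and colour gives the log2 value minus the mean of the 3 NP/Sed arrays, from blue (lower) to red (higher). The 3 LP columns are red in nearly every row, with medians of 0.30, 0.26 and 0.32, while Lpl and Fabp3 stay near 0 throughout.

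Among the genes of uptake, the extracellular lipase and the intracellular carrier passed in no comparison, and the surface transporters Cd36 and Slc27a1 did. Lpl, the lipase that frees fatty acids from lipoproteins, read 14.27, 14.22 and 14.24 in NP/Sed, 14.35, 14.25 and 14.25 in 7EX, 14.22, 14.26 and 14.21 in 21EX, 14.21, 14.24 and 14.25 in MP, 14.27, 14.27 and 14.29 in LP and 14.26, 14.22 and 14.23 in 0PP. The LP arrays overlapped with NP/Sed and 7EX and lay above those of 21EX, MP and 0PP by a small margin. Its LP difference from NP/Sed was 0.03 ± 0.06, adjusted p = 0.874, with a 95% interval of -0.09 to 0.16. Fabp3, the fatty acid binding protein of heart muscle, read 14.21, 14.24 and 14.26 in NP/Sed, 14.20, 14.18 and 14.20 in 7EX, 14.22, 14.20 and 14.26 in 21EX, 14.23, 14.20 and 14.19 in MP, 14.30, 14.26 and 14.27 in LP and 14.21, 14.18 and 14.22 in 0PP. The LP arrays were among the highest, with 21EX-3 between them, and its difference from NP/Sed was 0.04 ± 0.06, adjusted p = 0.831, with an interval of -0.08 to 0.17. Both genes were read near the top of the array's range, where only 16 of the 45037 probe sets were brighter than that of Lpl and 17 brighter than that of Fabp3, so that a small difference there is not shown to be a small difference in RNA. At its dimmer probe set, 1431056_a_at, Lpl differed by 0.26 ± 0.11, adjusted p = 0.279, between MP and LP, without overlap of the arrays, and by 0.05 ± 0.11, adjusted p = 0.895, between NP/Sed and LP. Cd36 read 12.57, 12.31 and 12.34 in NP/Sed, 12.37, 12.35 and 12.29 in 7EX, 12.35, 12.37 and 12.15 in 21EX, 12.46, 12.27 and 12.32 in MP, 12.64, 12.68 and 12.85 in LP and 12.42, 12.38 and 12.47 in 0PP. Its LP arrays were above all others, with NP/Sed-1 the nearest of the remaining arrays. Against NP/Sed the LP difference of Cd36 was 0.31 ± 0.09, adjusted p = 0.0837, which did not pass, and against MP it rose by 0.38 ± 0.09, adjusted p = 0.0387.

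Slc27a1, the fatty acid transport protein of muscle and fat, was the uptake gene with the clearest swing. It read 8.20, 8.21 and 8.33 in NP/Sed, 8.11, 8.01 and 7.80 in 7EX, 8.18, 8.09 and 8.11 in 21EX, 8.16, 8.06 and 8.06 in MP, 8.50, 8.64 and 8.57 in LP and 7.99, 7.87 and 8.06 in 0PP. All 3 LP arrays were above, and all arrays of 7EX, 21EX, MP and 0PP below, the NP/Sed arrays. Its LP difference from NP/Sed was 0.32 ± 0.08, adjusted p = 0.0568. Slc27a1 rose by 0.48 ± 0.08, adjusted p = 0.00614, between MP and LP and fell by 0.60 ± 0.08, adjusted p = 0.00177, between LP and 0PP. Its other probe set, 1422811_at, rose in LP against NP/Sed by 0.43 ± 0.10, adjusted p = 0.0416, and read 0.03 in 0PP against NP/Sed. There the 21EX, MP and 0PP arrays overlapped those of NP/Sed, so all arrays of these groups lay below NP/Sed at 1 of its 2 probe sets. Slc27a4, a related transport protein, ranged from 6.81 to 7.14 over all arrays with its highest mean in 0PP, and its LP difference was 0.07 ± 0.08, adjusted p = 0.78.

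In the carnitine shuttle 3 of the 6 measured genes, Slc22a5, Cpt2 and Mlycd, rose in LP. Slc22a5, the transporter that brings carnitine into the cell, read 8.40, 8.34 and 8.54 in NP/Sed, 8.48, 8.44 and 8.44 in 7EX, 8.49, 8.54 and 8.56 in 21EX, 8.53, 8.50 and 8.39 in MP, 8.89, 8.87 and 8.81 in LP and 8.31, 8.43 and 8.53 in 0PP. Its LP arrays lay above all others, which ranged from 8.31 to 8.56. Slc22a5 rose in LP by 0.43 ± 0.08, adjusted p = 0.00553. Mlycd, the decarboxylase that removes malonyl-CoA, the inhibitor of Cpt1, read 9.15, 9.16 and 9.32 in NP/Sed, 9.06, 9.15 and 9.12 in 7EX, 9.21, 9.10 and 9.20 in 21EX, 9.16, 8.92 and 8.98 in MP, 9.58, 9.54 and 9.56 in LP and 8.85, 8.91 and 9.18 in 0PP. The LP arrays were the highest and 0PP-1, 0PP-2, MP-2 and MP-3 the lowest of the 18. Mlycd rose in LP by 0.35 ± 0.09, adjusted p = 0.0474, close to the threshold, and fell between LP and 0PP by 0.58 ± 0.09, adjusted p = 0.0027. Cpt2, the enzyme on the inner membrane, rose in LP by 0.40 ± 0.07, adjusted p = 0.00718, and its 3 LP arrays (11.45, 11.43 and 11.50) were above all others. Crat, the carnitine acetyltransferase of the matrix, and Slc25a20, the carnitine-acylcarnitine carrier, differed from NP/Sed in LP by 0.25 ± 0.07, adjusted p = 0.0899, and 0.33 ± 0.11, adjusted p = 0.148, and all LP arrays of both were above the other 15. A second probe set of Slc25a20, 1423109_s_at, had less spread in NP/Sed and rose in LP by 0.64 ± 0.09, adjusted p = 0.00146. The dimmer probe sets of Crat, 1441919_x_at and 1448544_at, differed in LP by 0.12 ± 0.08, adjusted p = 0.531, and 0.07 ± 0.09, adjusted p = 0.808. At both of them the LP arrays overlapped those of NP/Sed.

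Cpt1a, the carnitine palmitoyltransferase best known from liver and present in heart at lower abundance, followed another course at its brightest probe set, 1460409_at. It read 8.61, 8.57 and 8.63 in NP/Sed, 8.17, 8.03 and 8.07 in 7EX, 8.41, 8.06 and 8.31 in 21EX, 8.31, 8.09 and 8.07 in MP, 8.53, 8.77 and 8.89 in LP and 8.27, 8.21 and 8.20 in 0PP. NP/Sed and LP shared the upper range, with LP-1 below all NP/Sed arrays and LP-2 and LP-3 above them, and every array of the other 4 groups lay below NP/Sed and LP. Cpt1a fell by 0.51 ± 0.10, adjusted p = 0.0274, in 7EX and by 0.45 ± 0.10, adjusted p = 0.0351, in MP, and differed by -0.34 ± 0.10, adjusted p = 0.0658, in 21EX. It rose between MP and LP by 0.57 ± 0.10, adjusted p = 0.00614, and fell between LP and 0PP by 0.50 ± 0.10, adjusted p = 0.0202. Its other probe sets, 1434866_x_at and 1438156_x_at, read -0.09 ± 0.10 and -0.11 ± 0.10 in 7EX and 0.08 ± 0.10 and -0.06 ± 0.10 in MP, so the falls of Cpt1a below NP/Sed rest on the probe set 1460409_at. In LP against NP/Sed they read 0.33 ± 0.10, adjusted p = 0.105, and 0.135 ± 0.10, adjusted p = 0.62. The LP arrays of 1434866_x_at (7.20, 7.25 and 7.10) lay above all other arrays, by a small margin over 0PP-3. The course described here is thus that of 1460409_at.

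The 8 enzymes of the mitochondrial spiral had LP differences between 0.09 and 0.43. Acadvl, the very long-chain acyl-CoA dehydrogenase, read 12.50, 12.23 and 12.24 in NP/Sed, 12.18, 12.21 and 12.09 in 7EX, 12.21, 12.26 and 12.15 in 21EX, 12.24, 12.22 and 12.23 in MP, 12.55, 12.57 and 12.71 in LP and 12.40, 12.36 and 12.49 in 0PP. The LP arrays were the highest and NP/Sed-1 came next, apart from NP/Sed-2 and NP/Sed-3. The LP difference of Acadvl from NP/Sed was 0.29 ± 0.08, adjusted p = 0.0816, and from MP it rose by 0.38 ± 0.08, adjusted p = 0.0205. Acadm, the medium-chain dehydrogenase, read 13.29, 13.11 and 13.16 in NP/Sed, 13.13, 13.16 and 13.14 in 7EX, 13.17, 13.18 and 13.08 in 21EX, 13.16, 13.06 and 13.08 in MP, 13.38, 13.36 and 13.40 in LP and 13.18, 13.19 and 13.26 in 0PP. LP was again above all other arrays, with NP/Sed-1 the next. Its LP difference was 0.20 ± 0.07, adjusted p = 0.176 against NP/Sed, and it rose by 0.28 ± 0.07, adjusted p = 0.0422, against MP. Acadl, the long-chain dehydrogenase, differed in LP by 0.26 ± 0.07, adjusted p = 0.0668, and Acads, the short-chain dehydrogenase, by 0.09 ± 0.09, adjusted p = 0.7.

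Hadha and Hadhb are the subunits of the trifunctional protein. Hadha read 11.94, 11.83 and 11.96 in NP/Sed, 11.81, 11.75 and 11.66 in 7EX, 11.86, 11.84 and 11.76 in 21EX, 11.85, 11.85 and 11.88 in MP, 12.23, 12.17 and 12.30 in LP and 11.83, 11.90 and 11.97 in 0PP. LP arrays stood above the rest and 7EX arrays were below NP/Sed. Hadha rose in LP by 0.33 ± 0.07, adjusted p = 0.0209, and fell between LP and 0PP by 0.33 ± 0.07, adjusted p = 0.0259. For Hadhb the LP difference was 0.20 ± 0.07, adjusted p = 0.143, and for Hadh, the 3-hydroxyacyl-CoA dehydrogenase of shorter chains, 0.17 ± 0.07, adjusted p = 0.263. Other probe sets of Hadh, 1460184_at and 1436756_x_at, differed in LP by 0.30 ± 0.08, adjusted p = 0.0581, and 0.11 ± 0.09, adjusted p = 0.65. Between MP and LP 1460184_at rose by 0.41 ± 0.08, adjusted p = 0.0102, and 1436756_x_at read 0.08 ± 0.09, adjusted p = 0.752. Acaa2, the mitochondrial thiolase that ends each turn, read 12.31, 12.28 and 12.28 in NP/Sed, 12.21, 12.28 and 12.13 in 7EX, 12.30, 12.24 and 12.14 in 21EX, 12.34, 12.26 and 12.34 in MP, 12.73, 12.66 and 12.76 in LP and 12.33, 12.42 and 12.57 in 0PP. LP was above all other arrays and 0PP-3, at 12.57, was the highest of the rest. Acaa2 rose in LP by 0.43 ± 0.07, adjusted p = 0.00553, and its other probe sets rose by 0.51 ± 0.08 and 0.56 ± 0.11.

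All 4 auxiliary enzymes, which bring unsaturated fatty acids into the spiral, rose in LP. Decr1, the 2,4-dienoyl-CoA reductase, read 11.60, 11.62 and 11.71 in NP/Sed, 11.62, 11.63 and 11.53 in 7EX, 11.66, 11.67 and 11.60 in 21EX, 11.67, 11.58 and 11.73 in MP, 12.11, 12.10 and 12.23 in LP and 11.96, 11.93 and 12.06 in 0PP. Its LP arrays were the highest and its 0PP arrays were next, above every array of the other 4 groups. Decr1 rose in LP by 0.50 ± 0.07, adjusted p = 0.00146, and was the only one of the 31 genes to rise in 0PP against NP/Sed, by 0.34 ± 0.07, adjusted p = 0.024. Its other probe set, 1449443_at, rose in LP by 0.61 ± 0.09, adjusted p = 0.00166, read 0.17 ± 0.09, adjusted p = 0.32 in 0PP and fell between LP and 0PP by 0.44 ± 0.09, adjusted p = 0.0232, so how much of the LP level of Decr1 was kept after birth differed between its probe sets. Ech1, the dienoyl-CoA isomerase, read 13.51, 13.54 and 13.52 in NP/Sed, 13.51, 13.49 and 13.45 in 7EX, 13.58, 13.57 and 13.51 in 21EX, 13.59, 13.54 and 13.59 in MP, 13.82, 13.79 and 13.84 in LP and 13.67, 13.76 and 13.79 in 0PP. The LP and 0PP arrays lay above all NP/Sed arrays and overlapped each other at 13.79. Ech1 rose in LP by 0.29 ± 0.06, adjusted p = 0.0193, and in 0PP it differed by 0.22 ± 0.06, adjusted p = 0.0725. Eci1 and Eci2, the enoyl-CoA isomerases, rose in LP by 0.28 ± 0.06, adjusted p = 0.0279, and 0.34 ± 0.07, adjusted p = 0.022.

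Of the genes of electron transfer, Etfdh passed in LP and the flavoprotein subunits did not. Etfdh, the dehydrogenase that hands the electrons to ubiquinone, rose by 0.41 ± 0.08, adjusted p = 0.0123. Its 3 LP arrays read 12.83, 12.79 and 12.94, above the other 15. The subunits Etfa and Etfb differed by 0.23 ± 0.07, adjusted p = 0.124, and 0.14 ± 0.07, adjusted p = 0.347.

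Ehhadh, the bifunctional enzyme of peroxisomal beta-oxidation, had the largest differences of the 31 genes in LP against NP/Sed, LP against MP and 0PP against LP. It read 6.88, 6.74 and 7.05 in NP/Sed, 6.96, 6.73 and 6.56 in 7EX, 6.95, 6.74 and 6.88 in 21EX, 6.63, 6.46 and 6.36 in MP, 7.58, 7.60 and 7.53 in LP and 6.37, 6.40 and 6.71 in 0PP. LP stood above all other arrays, the nearest of which was NP/Sed-3, and the MP and 0PP arrays were all below NP/Sed. Ehhadh rose in LP by 0.68 ± 0.11, adjusted p = 0.00352, against NP/Sed and by 1.09 ± 0.11, adjusted p = 7.64e-05, against MP, which is 2.13-fold. Between LP and 0PP it fell by 1.08 ± 0.11, adjusted p = 0.000121, to 0.473 of its LP level. Below NP/Sed it read -0.41 ± 0.11, adjusted p = 0.0866, in MP and -0.40 ± 0.11, adjusted p = 0.0704, in 0PP, neither of which passed. Ehhadh alone passed with more than the fold change of 75% (0.807 on the log2 scale) that the authors used as their limit, in LP against MP, where 0.22% of all genes did, and in 0PP against LP, where 0.165% did. Pex11a, which drives division of peroxisomes, differed in LP by 0.35 ± 0.10, adjusted p = 0.076, and its second probe set, 1419365_at, rose by 0.58 ± 0.10, adjusted p = 0.00563.

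**Figure D2:**
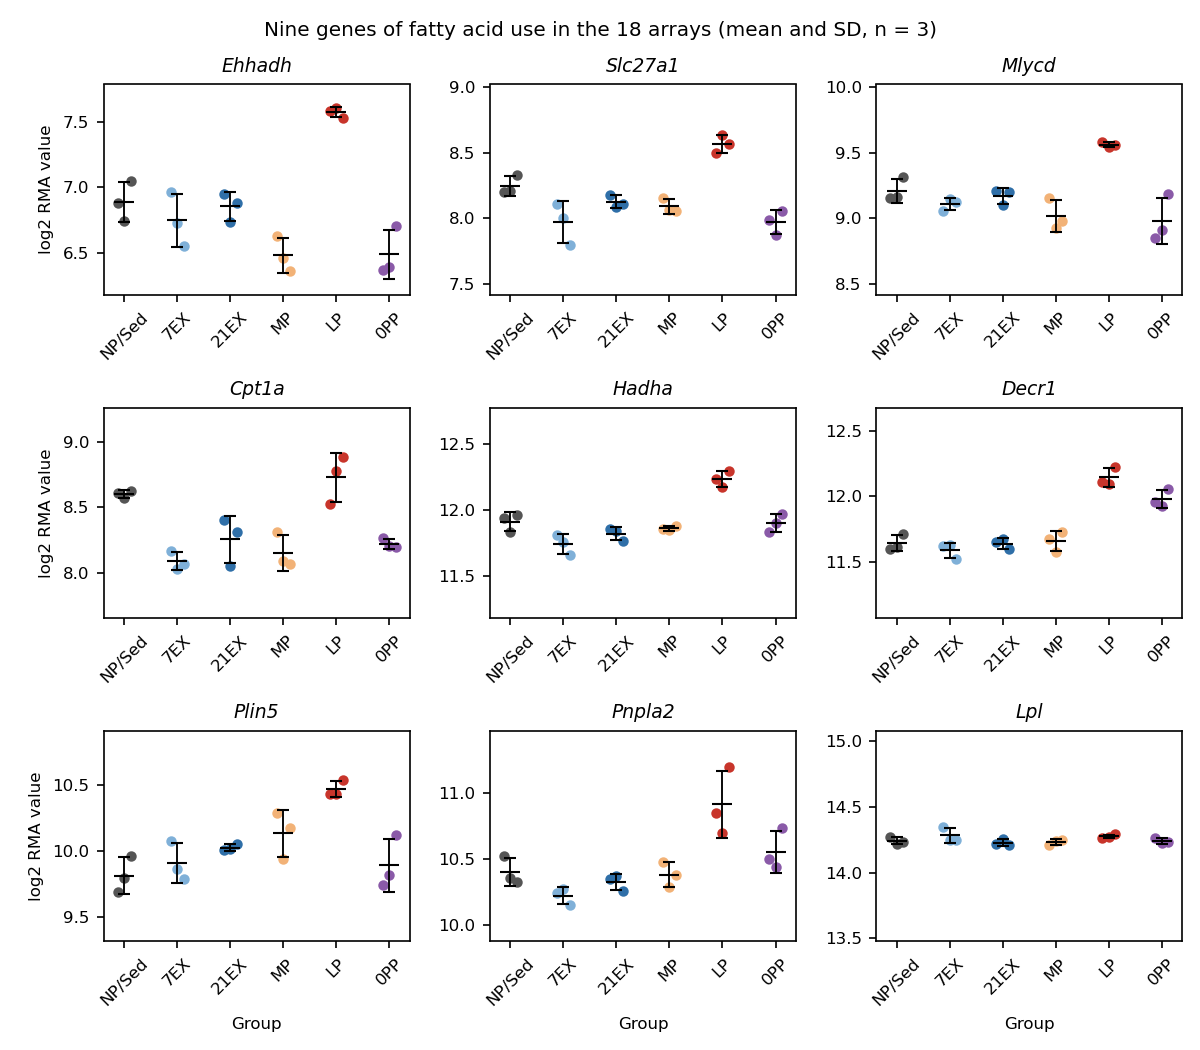
Points are single arrays and bars the mean and SD of 3 arrays, on the log2 scale, for 9 genes in 6 groups, with an axis of its own in each panel. Ehhadh in LP (7.53 to 7.60) is apart from every other array, and the Lpl arrays lie between 14.21 and 14.35. Cpt1a, at the probe set shown, is lower in the 7EX, MP and 0PP arrays than in NP/Sed.

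The lipid droplet genes had the highest median of the 7 roles in LP, at 0.64, but without LP-3 it was 0.37, below that of the peroxisome at 0.53. Plin5, the perilipin that ties droplets to mitochondria, read 9.69, 9.79 and 9.96 in NP/Sed, 10.08, 9.86 and 9.78 in 7EX, 10.004, 10.02 and 10.05 in 21EX, 10.29, 9.94 and 10.18 in MP, 10.43, 10.44 and 10.54 in LP and 9.74, 9.82 and 10.12 in 0PP. LP arrays were above all others, and MP-1 and MP-3 were next. Plin5 rose in LP by 0.66 ± 0.11, adjusted p = 0.00388, and fell between LP and 0PP by 0.58 ± 0.11, adjusted p = 0.0155. Its other probe set, 1424937_at, read 0.46 ± 0.10, adjusted p = 0.0184, in LP and -0.60 ± 0.10, adjusted p = 0.00438, in 0PP against LP. There it read 0.02 ± 0.10 in MP and -0.004 ± 0.10 in 21EX, and rose between MP and LP by 0.44 ± 0.10, adjusted p = 0.0278. Pnpla2, the lipase that starts the breakdown of stored triglyceride, read 10.52, 10.36 and 10.33 in NP/Sed, 10.24, 10.28 and 10.15 in 7EX, 10.35, 10.37 and 10.26 in 21EX, 10.48, 10.29 and 10.38 in MP, 10.85, 10.70 and 11.20 in LP and 10.50, 10.44 and 10.74 in 0PP. LP-3 was well above LP-1 and LP-2, and LP-2 lay below 0PP-3. Pnpla2 rose in LP by 0.52 ± 0.11, adjusted p = 0.0189.

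Plin2, the perilipin that coats droplets in most cells, read 9.36, 9.43 and 9.46 in NP/Sed, 9.42, 9.40 and 9.47 in 7EX, 9.47, 9.41 and 9.48 in 21EX, 9.33, 9.36 and 9.28 in MP, 9.73, 9.64 and 10.81 in LP and 9.34, 9.43 and 9.63 in 0PP. All 3 LP arrays were above the other 15, with LP-3 far above its group partners. Its LP difference was 0.64 ± 0.19, adjusted p = 0.105, which did not pass, and it was 0.27 without LP-3. LP-3 was also the highest array of the 18 for Pnpla2 and Cd36, and for further genes of other roles, among them Cpt2, Acadvl, Hadha, Acaa2 and Decr1. For others, such as Slc22a5, Mlycd, Slc27a1 and Ehhadh, another LP array was the highest.

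Against NP/Sed, 13 of the 31 genes rose in LP and none fell, and all 31 differences were above 0. Higher genes made up 1.8% of all genes tested in this comparison. The members' median was 0.31, against 0.01 over all genes. By role the rises were 0 of 5 for uptake (2 at an unadjusted p under 0.05 in limma), 3 of 6 for the carnitine shuttle, 2 of 8 for the spiral, 4 of 4 for the auxiliary enzymes, 1 of 3 for electron transfer, 1 of 2 for the peroxisome and 2 of 3 for the lipid droplet. The arrays of LP and NP/Sed did not overlap for 27 of the 31 genes, against 18.7% of all genes. At another of their probe sets Cd36, Pex11a, Slc25a20 and Slc27a1 rose as well. The share of 1.8% is at 1 probe set per gene and does not cover these. Of the 7 risers with further probe sets, 3 (Acaa2, Decr1 and Plin5) passed at another. Decr1, Ehhadh and Plin5 passed in all 28 alternative settings in which they were tested, and Mlycd in 9. The count was 6 without NP/Sed-2 or LP-3, 8 without NP/Sed-3 or LP-1, and 3 when the fit held only these 2 groups.

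In mid pregnancy none of these genes rose. Against NP/Sed no gene of the 31 rose in MP and 1, Cpt1a, fell, where 1.15% of all genes passed in either direction. The median was -0.02, and 13 of the 31 were above 0. Plin5 in MP read 0.32 ± 0.11, adjusted p = 0.16, and 0.02 ± 0.10, adjusted p = 0.956, at its other probe set. Between MP and LP 17 of the 31 rose and none fell, with 1.01% of all genes higher. All 31 differences were above 0, with a median of 0.33, and the arrays of the 2 groups did not overlap for 29 of the 31 genes, against 23.5% of all genes. The risers included 5 of 6 genes of the carnitine shuttle and 5 of 8 of the spiral. The count fell to 8 without MP-2, 6 without MP-3, 11 without LP-1 and 7 without LP-3, to 1 in a fit of these 2 groups alone, and to 3 once the 3' minus 5' difference of control probes, a measure of RNA integrity, was added to the model. That difference averaged 0.69 in MP, 0.60 in LP and 0.61 in NP/Sed, and its part in the difference was not tested further.

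Within 12 hours of birth a part of the genes had fallen from their late-pregnancy level. Between LP and 0PP 8 of the 31 fell and none rose, where 0.462% of all genes fell, and 30 of the 31 differences were below 0, the exception being Slc27a4 (0.11 ± 0.08). The genes that fell were Slc27a1, Slc22a5, Cpt1a, Cpt2, Mlycd, Hadha, Ehhadh and Plin5, which is 4 of the 6 carnitine shuttle genes, 1 each of uptake, spiral, peroxisome and lipid droplet, and none of the auxiliary enzymes. Cpt2 fell by 0.35 ± 0.07, adjusted p = 0.0259, and Slc22a5 by 0.43 ± 0.08, adjusted p = 0.0079. The median of the 31 was -0.26, against 0.00 over all genes, and the arrays did not overlap for 26 of them, against 18.6% of all genes. At another probe set Cd36, Decr1, Pex11a and Slc25a20 fell too. The share of 0.462% is at 1 probe set per gene and does not cover these. The count was 5 without LP-2, 4 without LP-3, 0PP-1 or 0PP-2, 7 without 0PP-3, and 2 in a fit of these 2 groups alone. It was 5 with the 3' minus 5' difference in the model, which was 0.58 to 0.63 in LP and 0.65 to 0.67 in 0PP, without overlap, and its part was not tested further. Slc27a1 and Ehhadh fell in all 28 alternative settings in which they were tested.

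Against NP/Sed, 0PP differed in few of these genes. Decr1 rose and no gene fell (4 at an unadjusted p under 0.05 in limma), with 2.7% of all genes passing in either direction, and 20 of the 31 differences were above 0 with a median of 0.03. Below NP/Sed, without passing, were Cpt1a (-0.38 ± 0.10, adjusted p = 0.0537), Ehhadh (-0.40 ± 0.11, adjusted p = 0.0704), Slc27a1 (-0.27 ± 0.08, adjusted p = 0.0894) and Mlycd (-0.23 ± 0.09, adjusted p = 0.177). Each comparison with NP/Sed uses the same 3 NP/Sed arrays, so these differences are not independent of those in LP. The rise of Decr1 did not pass without 0PP-2, 0PP-3, NP/Sed-2 or NP/Sed-3.

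**Figure D3:**
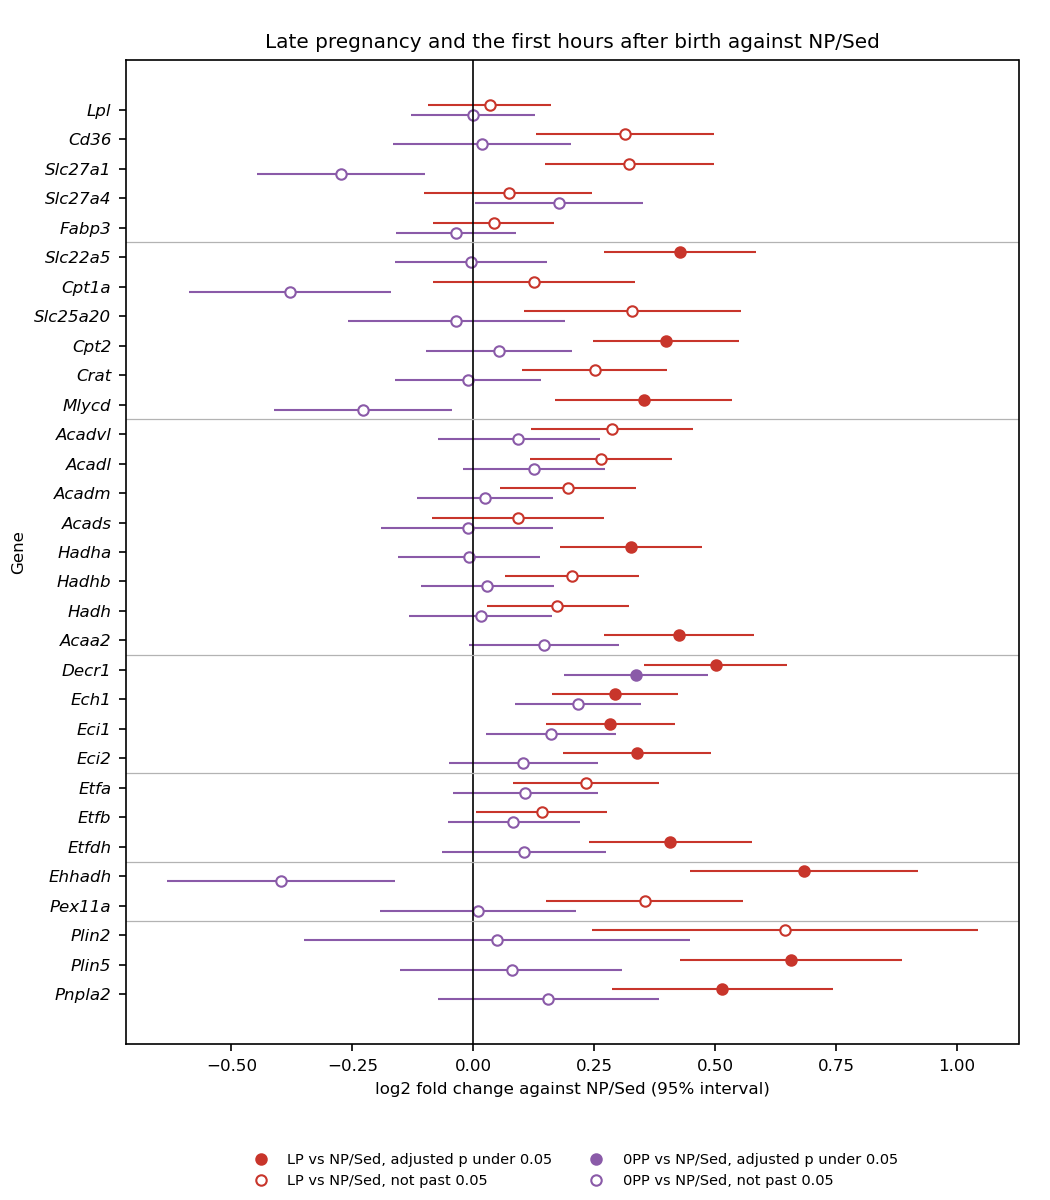
For each gene, ordered by role, circles give the log2 fold change against NP/Sed and lines its 95% interval, in red for LP and purple for 0PP, with filled circles where the adjusted p is under 0.05. All 31 LP values lie right of 0 and 13 are filled, whereas the 0PP values lie on both sides of 0 and 1, Decr1, is filled.

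No gene of the 31 rose with running. In 7EX Cpt1a was lower than in NP/Sed and no other gene passed, where 0.797% of all genes passed in either direction, and 22 of the 31 differences were below 0. The median was -0.05, against 0.03 over all genes. Slc27a1 (-0.27 ± 0.08, adjusted p = 0.138) and Hadha (-0.17 ± 0.07, adjusted p = 0.283) were among those below 0 that did not pass. At an unadjusted p under 0.05 in limma 4 of the 31 were lower and 0 higher. Of all 18193 genes 631 were lower and 1808 higher at that limit. The fall of Cpt1a in 7EX was lost without 7EX-2, 7EX-3 or any of the NP/Sed arrays, and with the 3' minus 5' difference in the model, which averaged 0.51 in 7EX. In 21EX limma passed none of the 31, with 2.67% of all genes passing, while at an unadjusted p under 0.05 there were 0 higher and 1 lower, Cpt1a, and the Cyber-T test passed 1. The median in 21EX was -0.02 and the largest difference upward was that of Plin5 (0.21 ± 0.11, adjusted p = 0.307), which read -0.004 ± 0.10 at its other probe set.

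Set directly beside each other, LP was higher than 21EX in 20 of the 31 genes and lower in none, with 1.51% of all genes higher in LP. The arrays did not overlap for 28 of the 31, against 23.4% of all genes, and the median difference was 0.35. Decr1 (0.50 ± 0.07, adjusted p = 0.000536), Acaa2 (0.49 ± 0.07, adjusted p = 0.000921) and Ehhadh (0.72 ± 0.11, adjusted p = 0.00124) had the smallest p. The genes that did not pass included Lpl, Fabp3, Slc27a4, Acads and Etfb. The count was 12 without 21EX-2, 21EX-3 or LP-3, and 13 without LP-2 or in a fit of these 2 groups alone.

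Genes around this pathway, taken from lists of genes by function, differed in how many rose in LP. The shares over all genes were 1.8% higher in LP against NP/Sed and 0.462% lower in 0PP against LP. Among fatty acid-responsive genes 3 of 6 measured rose, none fell and the median was 0.81. Angptl4, a secreted inhibitor of Lpl, read 7.09, 6.61 and 8.23 in NP/Sed, 8.69, 8.51 and 9.93 in LP and 6.36, 6.66 and 7.60 in 0PP. LP arrays were above all others, with LP-3 the highest and NP/Sed-3 apart from its partners. Angptl4 rose by 1.73 ± 0.39, adjusted p = 0.0283. Acot1 and Acot2, thioesterases of the cytosol and of mitochondria, rose by 1.44 ± 0.21, adjusted p = 0.00156, and 0.69 ± 0.10, adjusted p = 0.0016. Pdk4, the kinase that shuts off pyruvate dehydrogenase, read 0.92 ± 0.30, adjusted p = 0.152, and Ucp3, a mitochondrial carrier, 0.53 ± 0.20, adjusted p = 0.219. Between LP and 0PP 5 of the 6 fell, including Ucp3 by 1.34 ± 0.20, adjusted p = 0.00263, and Acot2 by 0.69 ± 0.10, adjusted p = 0.00213.

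Of the genes of triglyceride storage and lipolysis 6 of 12 rose in LP and none fell, with a median of 0.38. For this and the lists below, 1.8% of all genes rose in LP and 0.462% fell between LP and 0PP. They included Agpat3, an acyltransferase of glycerolipid synthesis (0.48 ± 0.07, adjusted p = 0.00193), Mgll, the monoglyceride lipase (0.47 ± 0.08, adjusted p = 0.00491), and Gpam, the acyltransferase that starts triglyceride synthesis (0.49 ± 0.09, adjusted p = 0.0075). Between LP and 0PP 3 of the 12 fell: Gpam (-0.57 ± 0.09, adjusted p = 0.00374), Plin4 (-0.49 ± 0.09, adjusted p = 0.0125) and Lipe, the hormone-sensitive lipase (-0.79 ± 0.17, adjusted p = 0.0298). Of further genes of fatty acid oxidation outside the 33, limma passed 0 of 22 in LP, at a median of 0.08 and with 5 higher at an unadjusted p under 0.05. Of other genes of uptake and activation 2 of 12 rose, Gpihbp1, which holds Lpl on the capillary wall (0.50 ± 0.09, adjusted p = 0.00718), and Fabp4 (0.25 ± 0.06, adjusted p = 0.0371). In fatty acid synthesis 1 of 10 rose, Acacb, the acetyl-CoA carboxylase that makes malonyl-CoA at the mitochondrion (0.35 ± 0.08, adjusted p = 0.0373).

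Of 19 regulators of the pathway 3 (15.8%) passed in LP, where 2.36% of all genes passed in either direction. In 21EX 3 (15.8%) passed as well, against 2.67% of all genes. In LP 2 of 19 rose, Pparg (0.69 ± 0.10, adjusted p = 0.00193) and the deacetylase Sirt1 (0.37 ± 0.08, adjusted p = 0.0215), and 1 fell, the coactivator Ppargc1b (-0.42 ± 0.10, adjusted p = 0.0448). Ppara itself was not called in LP (-0.30 ± 0.16, adjusted p = 0.41) and was lower in 21EX (-0.78 ± 0.16, adjusted p = 0.0182). The coactivator Ppargc1a also fell in 21EX, by 1.03 ± 0.24, adjusted p = 0.0313. Its NP/Sed arrays read 11.89, 10.50 and 10.48, so NP/Sed-1 stood far above its partners, and the 21EX arrays read 10.06, 9.73 and 10.01. The 1 regulator that rose in 21EX was Rxra, the partner of Ppara, by 0.33 ± 0.09, adjusted p = 0.0465.

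**Figure D4:**
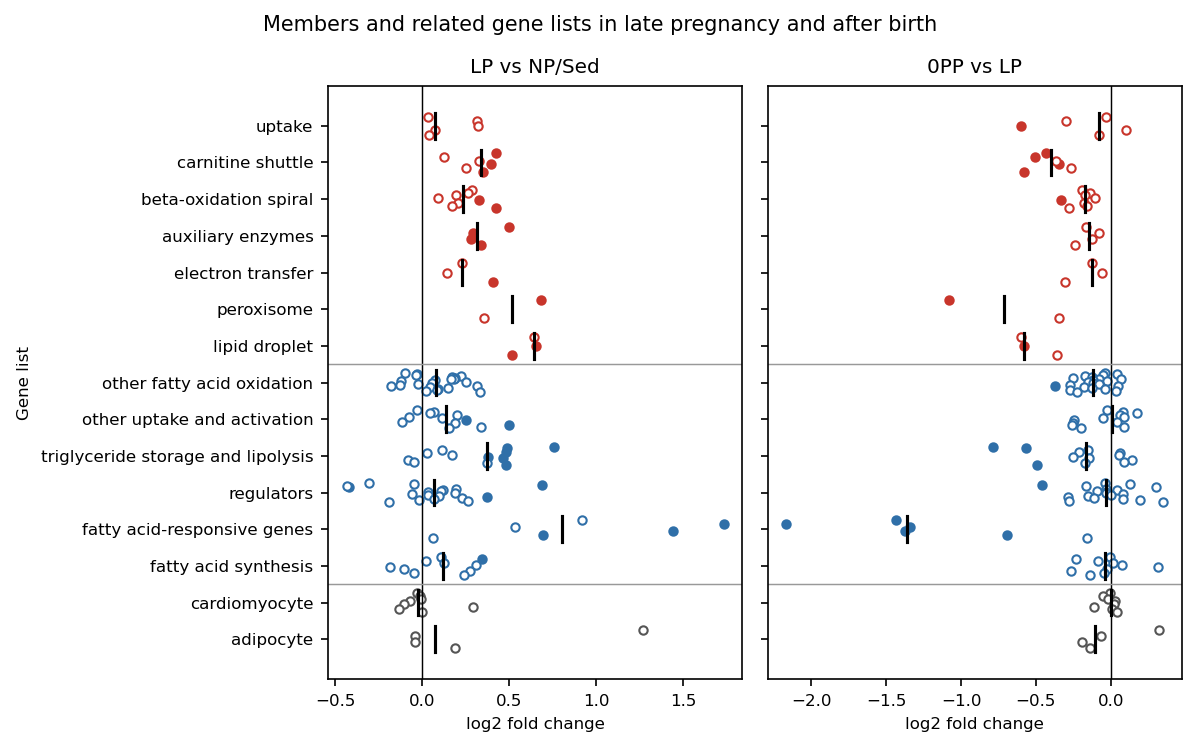
Each point is a gene's log2 fold change in LP against NP/Sed (left) or in 0PP against LP (right), filled where the adjusted p is under 0.05, and black ticks are list medians. The 7 roles of the 31 genes are in red, related lists in blue and markers of cardiomyocytes and adipocytes in grey. The fatty acid-responsive genes extend furthest, with medians of 0.81 in LP and -1.36 in 0PP against LP. The cardiomyocyte markers lie near 0 apart from Ryr2 in LP (0.29).

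Markers of several cell types moved with these comparisons. Against NP/Sed 2.36% of all genes passed in LP and 1.15% in MP, in either direction. The share was 1.91% for LP against MP, 4.18% for LP against 21EX and 1.33% for 0PP against LP. In limma 0 of 8 cardiomyocyte markers passed in LP (1 higher and 1 lower at an unadjusted p under 0.05), and their summed level ranged from 17.28 to 17.34 on the log2 scale over all 18 arrays. This sum is carried by some of the brightest probe sets, with 0 to 30 of the 45037 brighter than each of 7 of the markers. Ryr2, the calcium release channel and the dimmest of the 8, read 0.29 ± 0.10, adjusted p = 0.178, in LP. Of 7 adipocyte markers 4 were measured and in limma none passed in LP (1 higher at an unadjusted p under 0.05). Their LP differences were 2 above and 2 below 0, with the largest at 1.27. Adipoq read 3.27, 4.22 and 3.87 in NP/Sed and 5.57, 4.18 and 5.42 in LP. The sum of the adipocyte markers was 7.06 to 7.32 in LP and 6.84 to 7.17 in NP/Sed. It was highest in MP, at 7.38 to 8.36. Of 3 brown adipocyte markers Cidea rose in LP (0.38 ± 0.09, adjusted p = 0.0423) and Ucp1 and Elovl3 did not. The sum of the 3, carried by Cidea as the brightest, was 9.549 to 9.598 in LP, above every array of the other groups. It was 9.066 to 9.407 in NP/Sed, 9.455 to 9.497 in MP and 9.195 to 9.465 in 0PP. Of 5 fibroblast markers 2 were lower in LP than in MP, the collagens Col1a1 (-0.91 ± 0.13, adjusted p = 0.00192) and Col1a2 (-0.71 ± 0.10, adjusted p = 0.000959), 3 were lower in LP than in 21EX, 2 were higher in 0PP than in LP, Col1a2 and Tcf21, and in limma 0 passed in LP against NP/Sed (2 higher and 2 lower at an unadjusted p under 0.05). Their sum was 13.21 to 13.32 in MP, 13.17 to 13.35 in LP, 13.13 to 13.28 in 0PP and 13.09 to 13.29 in NP/Sed. Of 5 macrophage markers 3 rose in MP, Cd68, Csf1r and Adgre1, and 1, Csf1r, was lower in LP than in MP, with sums of 10.28 to 10.47 in MP and 10.01 to 10.20 in LP. Of 6 endothelial markers 1 rose in LP, Gpihbp1. Erythroid markers, of which 3 of 5 were measured, summed to 8.43 to 9.12 in MP, 6.86 to 7.22 in LP, 7.87 to 8.01 in 0PP and 7.26 to 7.48 in NP/Sed. The part of these markers in the differences was not tested.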

How the data were processed

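Values are the log2 values as deposited. The authors made them by RMA across all 18 arrays, which corrects background, normalizes by quantiles and summarizes probes, under R as stated in their methods. The number of arrays limits the precision. Of 45101 probe sets, 64 controls were left out. Of the probe sets, 34958 were annotated to 1 gene, 932 to several and 9211 to none, and the gene IDs of 34754 matched RefSeq. Replicate arrays correlated at 0.994 to 0.997.

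One linear model per probe set was fitted to the 6 groups in limma 3.58.1 under R 4.3.3, with two-sided moderated tests (12 residual and 6.45 prior degrees of freedom) and Benjamini-Hochberg adjustment over the 45037 probe sets of each comparison. Errors are standard errors, n = 3 arrays per group. Rose and fell are used at an adjusted p under 0.05, without the 75% fold limit that the authors joined to the Cyber-T test. Values in every array are given for the 12 genes with the smallest F-test p and for step genes set by function. The script was tested on simulated data. Alternatives were other choices of probe set, fits of only 2 groups, an intensity trend, Cyber-T (re-implemented with 50 neighbours on each side and a prior weight of 10), median centring, quantile normalization repeated, probe sets with a mean of 5 or more, a 3' minus 5' covariate, a replicate block, the fold limit, and each array left out. The genes and lists were chosen with earlier results of these data known, so they are not independent of them. The quantitative PCR and heart weights of the study are not analysed here.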

Additional observations from a re-analysis of the deposited data

Results flagged for a closer look

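Slc27a1 and Ehhadh moved to opposite sides of NP/Sed in different groups. Every LP array of Ehhadh was above, and every MP and 0PP array below, all NP/Sed arrays, and LP differed from MP by 1.09 (limma adjusted p = 7.64e-05) and 0PP from LP by -1.08 (adjusted p = 0.000121). Slc27a1 showed the same arrangement, with 0.48 for LP against MP (adjusted p = 0.00614), -0.60 for 0PP against LP (adjusted p = 0.00177) and 0.44 for LP against 21EX (adjusted p = 0.00493). These tests compare the groups directly and do not test each group's distance from NP/Sed. At the second probe set of Slc27a1 the MP, 21EX and 0PP arrays overlapped those of NP/Sed (0.03 ± 0.10 in 0PP), so the arrangement was not seen there.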

How the results depend on the processing

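Of 61 differences of single genes past an adjusted p of 0.05, each followed over 28 alternative settings (18 with an array left out), 1450 of 1708 combinations still passed, 258 did not and 0 turned direction. Most of the fits with an array left out drop an array of neither group compared, where the difference cannot change. For the 13 genes with 1 probe set the choice of probe set cannot change it either. These totals were thus partly fixed in advance. The numbers below are genes of the 31 that passed. A fit of only the 2 groups compared, which has fewer arrays, gave 3 in LP (13 in the fit of all groups), 0 in MP and 0 in 0PP (1 each), 1 for LP against MP (17), 2 for 0PP against LP (8) and 13 for LP against 21EX (20). An intensity trend gave 21 in LP, 3 in 0PP and 1 in 21EX (0). Cyber-T gave 2 in 7EX (1), 1 in 21EX, 2 in MP, 3 in 0PP, 26 for LP against MP and 13 for 0PP against LP. The 3' minus 5' covariate gave 0 in 7EX, 0 in MP, 3 for LP against MP and 5 for 0PP against LP. The mean of a gene's probe sets gave 0 in 7EX, 0 in MP, 2 in 0PP and 14 for 0PP against LP. A mean value of at least 5 gave 1 in 21EX and 5 in 0PP, repeated quantile normalization 1 and 2, and median centring 2 in 0PP. With the fold limit 1 gene, Ehhadh, passed for LP against MP and 1, Ehhadh, for 0PP against LP, and 0 passed in 7EX, 0 in MP, 0 in LP, 0 in 0PP and 0 for LP against 21EX. The cause of these changes was not tested beyond what each setting states.

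With each array left out in turn the counts ran from 0 to 1 in 7EX, 0 to 0 in 21EX, 0 to 2 in MP, 6 to 15 in LP (15 without NP/Sed-1), 0 to 2 in 0PP, 6 to 18 for LP against MP, 4 to 8 for 0PP against LP, 12 to 21 for LP against 21EX and 12 to 20 for the F-test. Over 29 settings 30 or 31 of the 31 genes were above 0 in LP, the exception being Acads without LP-3 (-0.01), and the median in LP ran from 0.28 to 0.35. The replicate block gave 1, 0, 1 and 12 in 7EX, 21EX, MP and LP, 1 in 0PP, 14 for LP against MP, 8 for 0PP against LP, 19 for LP against 21EX and 18 for the F-test. Arrays that share a replicate number did not deviate together (mean r = -0.03 over 45 pairs, 7 above 0.1), so the numbers were not taken as a pairing. The F-test could not be run for 2 groups, for Cyber-T or with the fold limit.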
